A study of Mus musculus with 12 samples.

Results

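The genes of translation initiation factors were followed under NRF2 overexpression and under romidepsin in KP1, a mouse cell line labelled LUAD (lung adenocarcinoma). A gene was included if its symbol started with Eif1 to Eif6, which left out the eIF2α kinases (the 4 Eif2ak genes) and 8 pseudogenes with symbols ending in -ps and a digit. The rule found 71 genes among 35013 rows of the count table, and 53 of them had enough counts to be tested among 13502 tested genes. Poly-A RNA was sequenced from 4 groups of 3 libraries each, and the design text calls the 3 of a group biological replicates: KP1 cells with NRF2 overexpression given 5 nM romidepsin, the same NRF2 cells given DMSO, KP1 cells with an empty vector (EV) given 5 nM romidepsin, and the same EV cells given DMSO, each for 16 h. Romidepsin inhibits class I histone deacetylases, and DMSO is its solvent. NRF2, encoded by Nfe2l2, is a transcription factor that drives antioxidant genes. The title of the series concerns the use of histone deacetylase inhibitors in tumours with active NRF2. The labels do not say which promoter drives NRF2, whether a line is a clone or a pool, or whether replicates were separate transductions, so p-values measure the spread between these libraries.

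Initiation is the step in which a ribosome is loaded on an mRNA and finds the start codon. The ternary complex of eIF2, GTP and the initiator tRNA joins the small subunit with eIF1, eIF1A, eIF3 and eIF5. The eIF4F complex (the cap-binding protein eIF4E, the scaffold eIF4G and the helicase eIF4A) brings this assembly to the capped end of the mRNA. Initiation is switched down when the α subunit of eIF2 is phosphorylated, which blocks its recharging by eIF2B, and when the kinase mTORC1 is inactive, which lets the 4E-binding proteins keep eIF4E away from eIF4G. In tumour cells MYC is known to raise the transcription of many genes of the translation machinery.

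The 12 libraries held 16842824 to 28003010 counts. Nfe2l2 followed the labels, at 349 ± 13.8 CPM in NRF2 cells with romidepsin and 305 ± 40.7 CPM in NRF2 cells with DMSO, against 96.3 ± 2.90 CPM in EV cells with romidepsin and 102 ± 1.37 CPM in EV cells with DMSO (SD, n = 3 each; CPM are counts scaled to library size with TMM factors). Of the lung epithelial markers, the keratin genes Krt8, Krt18 and Krt19 and the cadherin gene Cdh1 were high (225 to 3731 CPM), whereas the epithelial adhesion gene Epcam was low, at 7.06 to 7.47 CPM with romidepsin against 0.0381 to 0.0983 CPM with DMSO in NRF2 cells and 3.02 to 4.06 CPM with romidepsin against 0 to 0.0534 CPM with DMSO in EV cells. The alveolar and lung adenocarcinoma markers Nkx2-1, Sftpc and Napsa were near 0, at most 0.491 CPM. The summed level of the 8 epithelial markers was higher with romidepsin, at 8095 to 8449.6 CPM in NRF2 cells against 4675 to 5244 CPM with DMSO, and at 5582 to 5709.6 CPM in EV cells against 3211 to 3249.9 CPM with DMSO. Krt8, Krt18 and Krt19 were higher with romidepsin in both lines, whereas Cdh1 was lower. Cdh1 had 225 to 230 CPM with romidepsin against 406 to 424 CPM with DMSO in NRF2 cells. In EV cells it had 235 to 256 CPM with romidepsin against 344 to 366 CPM with DMSO. The 4 mesenchymal markers, of which Vim gave 2882 to 6145 CPM, summed to 5191 to 5547 CPM with romidepsin against 2883 to 3211 CPM with DMSO in NRF2 cells, and to 6074 to 6153 CPM against 3353 to 3507 CPM in EV cells. The 3 immune markers used here summed to 66.7 to 70.3 CPM with romidepsin against 3.84 to 4.52 CPM with DMSO in NRF2 cells, and to 48.2 to 52.8 CPM against 2.83 to 4.15 CPM in EV cells. Nearly all of this was Cd68, since Ptprc and Cd3e stayed at or below 0.566 CPM. The part of these shifts in the results was not tested.

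One library stood apart, replicate 3 of NRF2 cells with DMSO. Its root mean square log2 distance from the other 2 libraries of its group was 0.344, while the remaining libraries had 0.17 to 0.227. Its counts differed from those of its 2 replicates by a chi-square of 30.7 and 38.9 per degree of freedom, and the other replicate pairs had 2.39 to 8.93, so no pair agreed within sampling noise. Calls that changed when it was left out are named with the results.

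The sequences shown here are those upstream of start sites that hold the hexamer CACGTG, the E-box that MYC with its partner MAX and other helix-loop-helix factors can bind, because Eif5a and Eif4a1, which held the highest levels per kilobase of transcript among these genes in EV cells with DMSO, carry it. They are 86 or 84 bases of RefSeq promoters (GRCm38.p6), printed 5′ to 3′ on the strand of the gene with each E-box in capitals. They overlap no annotated exon. The windows of Eif4g1 and Eif5a lie upstream of RefSeq starts that are inside the annotated span of the gene. The spans are 20668313 to 20692884 for Eif4g1 and 69916714 to 69921958 for Eif5a.
Eif4a1, chr11:69672567-69672652, minus strand: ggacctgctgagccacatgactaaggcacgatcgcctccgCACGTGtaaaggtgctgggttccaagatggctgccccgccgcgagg
Eif4g1, chr16:20672633-20672718, plus strand: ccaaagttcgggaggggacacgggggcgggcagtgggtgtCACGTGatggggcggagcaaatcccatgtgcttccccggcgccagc
Eif5a, chr11:69921415-69921500, minus strand: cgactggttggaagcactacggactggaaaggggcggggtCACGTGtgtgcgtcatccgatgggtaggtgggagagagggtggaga
Eif5a2, chr3:28781120-28781205, plus strand: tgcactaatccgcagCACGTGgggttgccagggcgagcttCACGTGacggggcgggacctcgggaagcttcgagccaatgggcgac
Eif3f, chr7:108934307-108934392, plus strand: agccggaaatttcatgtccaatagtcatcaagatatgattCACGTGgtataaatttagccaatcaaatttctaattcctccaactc
Eif3k, chr7:28981889-28981972, minus strand: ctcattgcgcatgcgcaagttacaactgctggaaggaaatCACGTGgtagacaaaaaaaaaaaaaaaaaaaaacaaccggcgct
RefSeq promoters from 250 bases before to 50 bases after the start matched 40 of the 71 genes. CACGTG, which reads the same on both strands, was found in 10 of them (25.0%), against 2187 of 27025 genes with a promoter (8.09%). The 10 genes were Eif1b, Eif3a, Eif3f, Eif3k, Eif4a1, Eif4e, Eif4g1, Eif4h, Eif5a and Eif5a2. They include low genes, with Eif1b at 22.8 and Eif5a2 at 5.62 CPM per kb in EV cells with DMSO. Eif1, next after Eif5a and Eif4a1 at 389 CPM per kb, had a promoter without CACGTG. Whether the hexamer goes with level was not tested. The amino acid response element TGATGNAA was found on either strand in 1 of the 40 (2.5%), against 4.51% of all promoters, and the antioxidant response element TGANNNNGC in 14 (35.0%), against 45.0%. None of these counts is a test of binding.

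The initiation factor genes held a smaller share of all counts with romidepsin in both lines. It was 1.15 ± 0.016% in NRF2 cells with romidepsin against 1.51 ± 0.025% with DMSO, and 1.24 ± 0.0076% in EV cells with romidepsin against 1.55 ± 0.026% with DMSO (SD, n = 3 each). The romidepsin libraries lay below the DMSO libraries in each line without overlap. These are bulk samples, in which fewer cells of a type and less RNA per cell cannot be told apart. In NRF2 cells 30 of the 53 tested genes were lower and 10 higher, and in EV cells 27 were lower and 9 higher (edgeR adjusted p under 0.05). The background is large: 39.3% of all tested genes were lower and 40.5% higher in NRF2 cells, and 37.4% were lower and 39.1% higher in EV cells. The median log2 change of the initiation factor genes was -0.18 in NRF2 cells and -0.15 in EV cells, against 0.015 over all tested genes in NRF2 cells and 0.011 in EV cells. In NRF2 cells 16 and in EV cells 14 were lower by at least 1.5-fold, and 4 were higher by that much in each line. The share of all tested genes at that cut was not computed. At 2-fold 4 were lower and 2 higher in NRF2 cells, and 2 lower and 3 higher in EV cells. Of all tested genes, 31.9% in NRF2 and 26.6% in EV cells were called at 2-fold. The median absolute log2 change was 0.50 in NRF2 and 0.36 in EV cells (0.65 and 0.55 over all tested genes). Of the initiation factor genes 75.5% were called in NRF2 and 67.9% in EV cells (79.8% and 76.5% of all tested genes). Of the genes called higher, 7 in NRF2 cells and 6 in EV cells averaged 5 CPM or more. The other 3 of each line were low, Eif1ad2 and Eif1ad7 in both lines, Eif4ebp3 in NRF2 cells and Eif1ad15 in EV cells, and they made up 3 of the 4 genes higher by at least 1.5-fold in each line. Such genes can pass the filter on low counts through the romidepsin libraries alone. Every gene called lower averaged 5 CPM or more. Genes called in both lines numbered 26 among the lower ones, which is 26 of 30 in NRF2 cells and 26 of 27 in EV cells, and 7 among the higher ones (7 of 10 in NRF2 cells and 7 of 9 in EV cells), of which 5 averaged 5 CPM or more. The share of all tested genes called in both lines was not computed, so these overlaps have no background to stand against. Of the 10 genes with CACGTG in the promoter, 5 were lower and 1 higher in NRF2 cells, and 6 lower and 1 higher in EV cells. Of the 28 tested genes with a promoter and no CACGTG, 19 were lower and 4 higher in NRF2 cells, and 16 lower and 4 higher in EV cells.

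Scaling matters for the calls near 0. With upper-quartile scaling 24 were lower and 14 higher in NRF2 cells and 23 lower and 15 higher in EV cells. With library size alone 24 were lower and 15 higher in NRF2 cells and 23 lower and 16 higher in EV cells. These scalings moved the median of all tested genes by 0.11 (upper quartile, both lines), 0.14 (library size, NRF2 cells) and 0.12 (library size, EV cells) on the log2 scale. Relative to the median of all genes, the median initiation factor gene was lower by 0.20 (log2) in NRF2 cells and by 0.16 in EV cells, a distance that scaling hardly touches because it shifts all genes of a comparison alike. When replicate 3 of NRF2 cells with DMSO was left out, 33 were lower and 10 higher in NRF2 cells, and 27 lower and 12 higher in EV cells. The background was then 41.1% lower and 40.4% higher in NRF2 cells, and 39.1% lower and 41.1% higher in EV cells. Eif3f, Eif3m and Eif4a3 were then lower and Eif1ad15 and Eif2s3x higher in NRF2 cells, where Eif2b1 and Eif4ebp3 were no longer called, and Eif2b1, Eif3i and Eif6 were higher in EV cells.

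**Figure D1:**
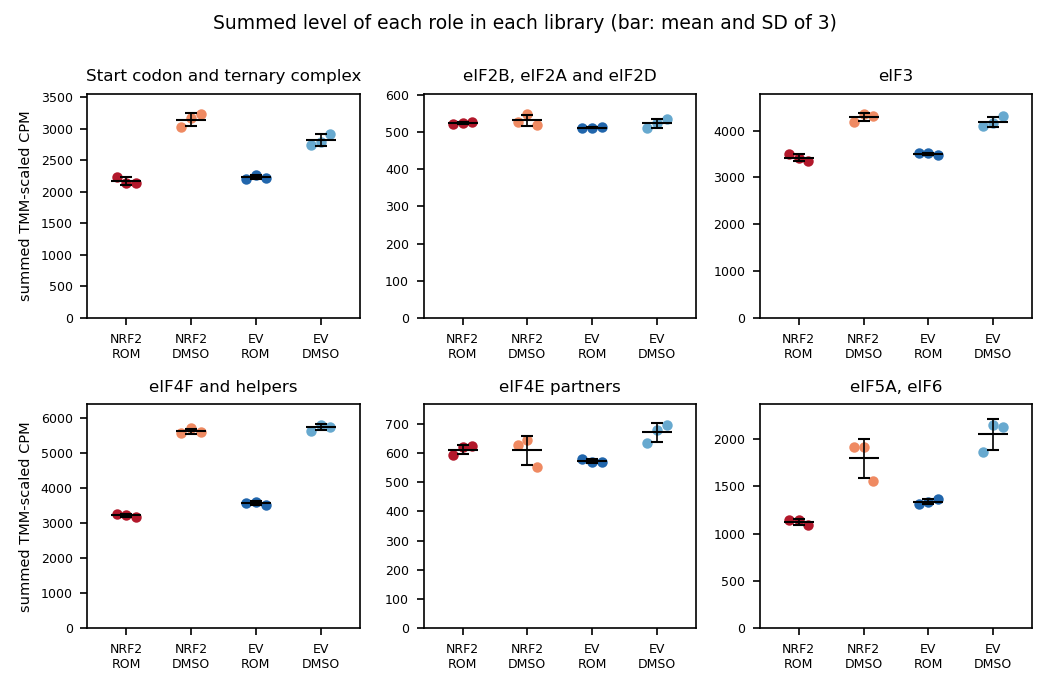
Summed TMM-scaled CPM of the genes of each role in every library, with the mean and SD of 3 libraries as black bars, for NRF2 cells with romidepsin (ROM), NRF2 cells with DMSO, EV cells with romidepsin and EV cells with DMSO from left to right. The genes of eIF4F and its helpers sum to 3227 ± 51.3 CPM with romidepsin against 5636 ± 69.5 CPM with DMSO in NRF2 cells, and to 3580.3 ± 47.4 CPM with romidepsin against 5747 ± 90.2 CPM with DMSO in EV cells, while the eIF2B, eIF2A and eIF2D genes lie between 509.7 and 548 CPM in every library.

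The plot of summed levels shows the roles one by one. The 12 genes of eIF4F and its helpers, of which 10 were tested, summed to 3227 ± 51.3 CPM in NRF2 cells with romidepsin against 5636 ± 69.5 CPM with DMSO, and to 3580.3 ± 47.4 CPM in EV cells with romidepsin against 5747 ± 90.2 CPM with DMSO (SD, n = 3 each). The start codon and ternary complex genes summed to 2169 ± 59.3 CPM with romidepsin against 3141 ± 105 CPM with DMSO in NRF2 cells and to 2232 ± 35.9 CPM with romidepsin against 2818 ± 93.3 CPM with DMSO in EV cells. The 14 eIF3 genes summed to 3424 ± 67.7 CPM with romidepsin against 4284 ± 85.5 CPM with DMSO in NRF2 cells and to 3509 ± 22.2 CPM with romidepsin against 4189 ± 108 CPM with DMSO in EV cells. The eIF5A and eIF6 genes summed to 1127 ± 30.8 CPM with romidepsin against 1798 ± 205 CPM with DMSO in NRF2 cells. In EV cells they summed to 1337 ± 24.9 CPM against 2048 ± 162 CPM. In each of these roles the romidepsin and DMSO libraries of a line did not overlap. The sums of the 4E-binding protein genes with Eif4enif1 overlapped in NRF2 cells (612 ± 16.4 CPM with romidepsin, 609 ± 49.1 CPM with DMSO). They did not overlap in EV cells (572 ± 5.73 CPM with romidepsin, 670 ± 32.6 CPM with DMSO). The sums of eIF2B with eIF2A and eIF2D differed little, at 524 ± 2.67 CPM with romidepsin against 532 ± 14.8 CPM with DMSO in NRF2 cells and 512 ± 2.24 CPM with romidepsin against 524 ± 12.4 CPM with DMSO in EV cells, differences under 1 SD of the DMSO libraries.

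Per kilobase of transcript, the order of levels in EV cells with DMSO was led by Eif5a (1438 CPM per kb), Eif4a1 (651), Eif1 (389), Eif4b (354) and Eif3h (310.2 CPM per kb). Eif4e stood at 256, Eif4g1 at 216, Eif4ebp1 at 171, Eif2s1 at 61.6 and Eif4ebp2 at 52.9 CPM per kb. In NRF2 cells with romidepsin Eif5a still led at 693 CPM per kb, followed by Eif3h at 397, Eif4a1 at 313 and Eif4e at 293 CPM per kb. Length was the median over the annotated coding transcripts of a gene, so the order depends on which transcripts are expressed. For Eif4e it was 0.7925 kb, while its longest coding transcript has 4991 bases. Over the 47 tested genes averaging 5 CPM or more, the level per kilobase and the log2 change with romidepsin had a Spearman correlation across genes of -0.12 in NRF2 cells and -0.14 in EV cells. All genes come from the same 12 libraries and are not independent.

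**Figure D2:**
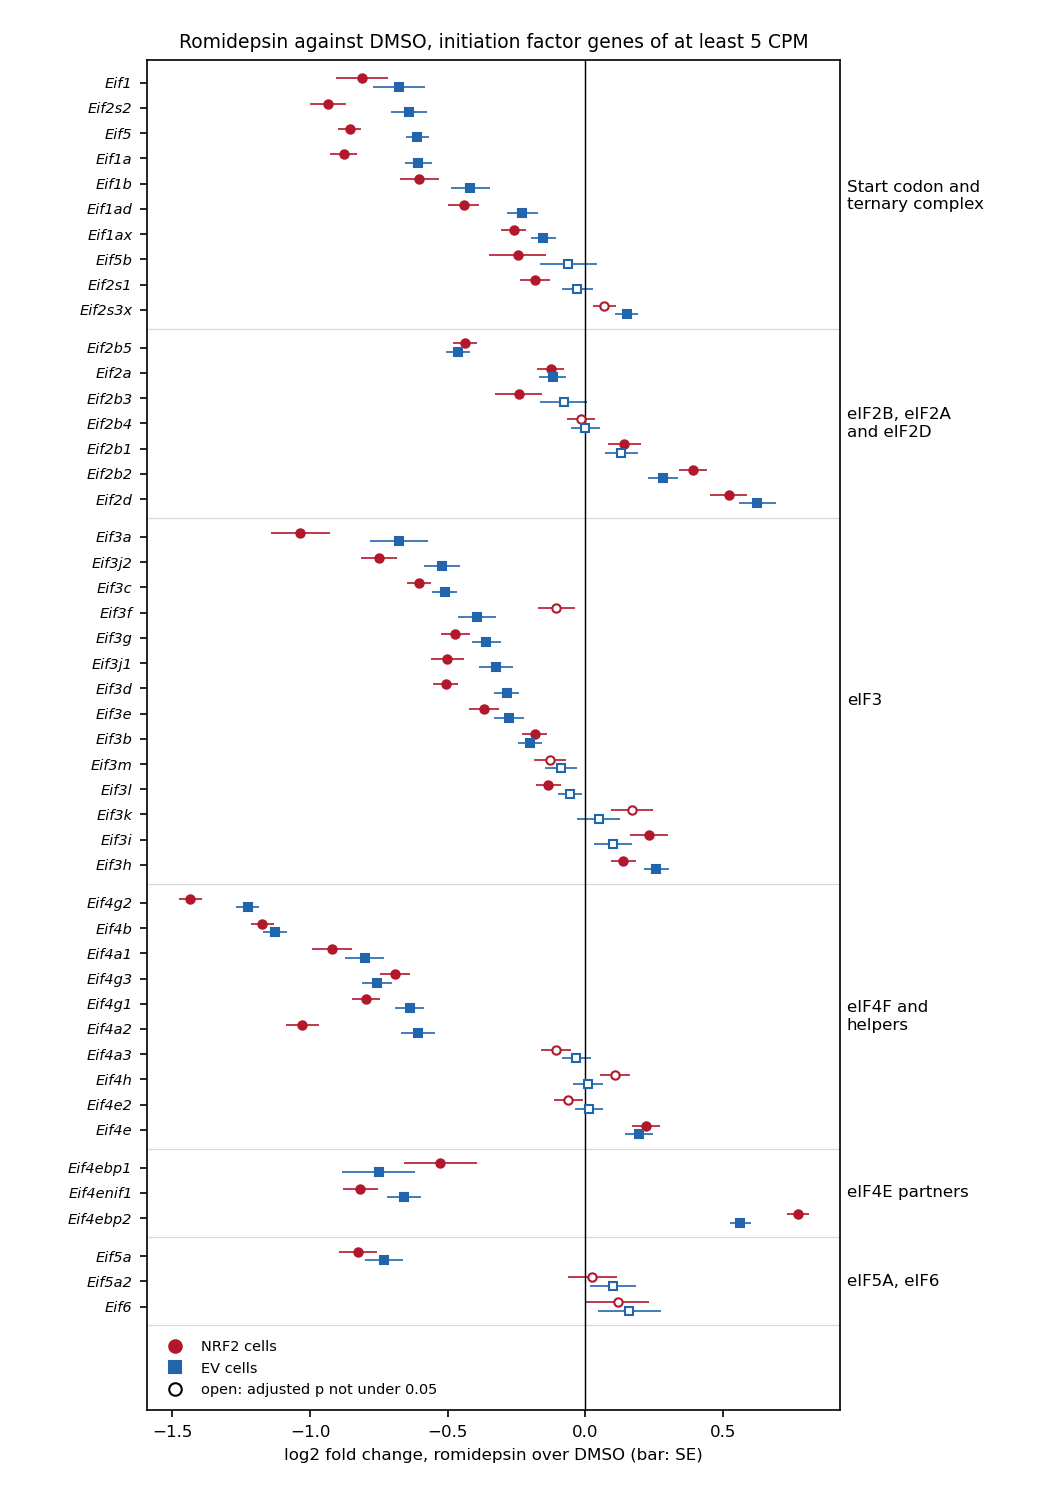
Log2 fold change of romidepsin over DMSO with its SE for the 47 tested initiation factor genes averaging 5 CPM or more, grouped by role, in NRF2 cells (circles) and EV cells (squares, just under them). Filled symbols passed the edgeR test. Eif4g2 and Eif4b lie farthest to the left in both lines, and Eif4ebp2 and Eif2d farthest to the right.

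The genes of eIF4F and its helpers held the lowest fold changes. Beside the genes of eIF4E, eIF4G and eIF4A, this role takes in Eif4b, Eif4h, Eif4g2, Eif4e2 and Eif4a3. Of the 10 tested, 6 were lower and 1 higher in each line, with a median log2 change of -0.74 in NRF2 cells and -0.62 in EV cells. Eif4g2 measured 427, 407 and 398 CPM in NRF2 cells with romidepsin, against 1083, 1118 and 1131 CPM with DMSO. EV cells had Eif4g2 at 465, 474 and 457 CPM with romidepsin, against 1085, 1102 and 1083 CPM with DMSO. Eif4g2 (identifier ENSMUSG00000005610.17, chromosome 7, 111067750 to 111083030, minus strand, GRCm38) encodes a relative of eIF4G that lacks the eIF4E-binding part and serves cap-independent initiation. All 6 romidepsin libraries were below the 6 DMSO libraries (log2 -1.43 ± 0.044, SE, edgeR adjusted p = 4.7e-15 in NRF2 cells; log2 -1.23 ± 0.043, SE, edgeR adjusted p = 5.6e-14 in EV cells). Eif4b measured 509, 496 and 526 CPM in NRF2 cells with romidepsin, against 1134, 1159 and 1162 CPM with DMSO. For Eif4b in EV cells the levels were 447, 440.1 and 425 CPM with romidepsin, against 962, 966 and 939 CPM with DMSO. Eif4b (identifier ENSMUSG00000058655.9, chromosome 15, 102073773 to 102097173, plus strand) encodes a cofactor of the eIF4A helicase and was lower in both lines, again with no overlap (log2 -1.17 ± 0.043, SE, edgeR adjusted p = 4.7e-14 in NRF2 cells; log2 -1.13 ± 0.043, SE, edgeR adjusted p = 1.3e-13 in EV cells). Eif4h, the gene of the second such cofactor, was not called in either line and measured 495 ± 18.8 CPM with romidepsin against 459.8 ± 36.5 CPM with DMSO in NRF2 cells, and 526 ± 8.05 CPM with romidepsin against 523 ± 20.1 CPM with DMSO in EV cells (SD, n = 3 each).

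Both helicase genes fell. Eif4a1 measured 573, 558 and 534 CPM in NRF2 cells with romidepsin, against 1104, 1148 and 896 CPM with DMSO. For Eif4a1 in EV cells the levels were 646, 678 and 663 CPM with romidepsin, against 1093, 1177 and 1194 CPM with DMSO. Romidepsin lowered Eif4a1 (identifier ENSMUSG00000059796.16, chromosome 11, 69666936 to 69672423, minus strand) in both lines, with no overlap between romidepsin and DMSO libraries (log2 -0.92 ± 0.072, SE, edgeR adjusted p = 3.9e-09 in NRF2 cells; log2 -0.80 ± 0.072, SE, edgeR adjusted p = 2.8e-08 in EV cells). Its counts are uncertain: the 1218 bases of the pseudogene Eif4a-ps4 on chromosome 1, which is outside the rule, match an Eif4a1 transcript at 99.9% and held 2410 to 7375 counts per library. With these counts added to Eif4a1, an alternative chosen after seeing the data, each called initiation factor gene kept its call. Eif4a2 measured 171, 179 and 171 CPM in NRF2 cells with romidepsin, against 329, 334 and 400.4 CPM with DMSO. EV cells had Eif4a2 at 227, 232 and 218 CPM with romidepsin, against 334, 346 and 352 CPM with DMSO. Eif4a2 (identifier ENSMUSG00000022884.15, chromosome 16, 23107444 to 23114136, plus strand) fell more in NRF2 cells (log2 -1.03 ± 0.061, SE, edgeR adjusted p = 3.8e-11) than in EV cells (log2 -0.61 ± 0.061, SE, edgeR adjusted p = 5.8e-08), and the difference itself was called (log2 -0.42 ± 0.086, SE, edgeR adjusted p = 0.003). Replicate 3 of NRF2 cells with DMSO was lowest in its group for Eif4a1 and highest for Eif4a2. Eif4a3, whose protein sits in the exon junction complex, was not called and measured 139 ± 6.99 CPM with romidepsin against 150.2 ± 11.9 CPM with DMSO in NRF2 cells and 145 ± 0.485 CPM with romidepsin against 148 ± 3.08 CPM with DMSO in EV cells. Without that library Eif4a3 was called lower in NRF2 cells (log2 -0.18, edgeR adjusted p = 2.3e-04).

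The scaffold genes fell while the cap-binding gene rose. Eif4g1 measured 567, 589 and 564 CPM in NRF2 cells with romidepsin, against 959, 949.5 and 1080.0 CPM with DMSO. For Eif4g1 in EV cells the levels were 777, 761 and 729.7 CPM with romidepsin, against 1188, 1190.1 and 1151 CPM with DMSO. Eif4g1 (identifier ENSMUSG00000045983.16, chromosome 16, 20668313 to 20692884, plus strand), the main scaffold of eIF4F, was lower with romidepsin in every library of both lines (log2 -0.80 ± 0.052, SE, edgeR adjusted p = 1.3e-10 in NRF2 cells; log2 -0.64 ± 0.052, SE, edgeR adjusted p = 3.6e-09 in EV cells). Eif4g3 measured 39.8, 39.0 and 42.5 CPM in NRF2 cells with romidepsin, against 62.9, 65.0 and 68.0 CPM with DMSO. For Eif4g3 in EV cells the levels were 33.4, 32.5 and 30.8 CPM with romidepsin, against 56.7, 54.2 and 52.7 CPM with DMSO. Its paralog Eif4g3 (identifier ENSMUSG00000028760.16, chromosome 4, 137993022 to 138208508, plus strand) fell too (log2 -0.69 ± 0.054, SE, edgeR adjusted p = 1.5e-09 in NRF2 cells; log2 -0.76 ± 0.055, SE, edgeR adjusted p = 8.9e-10 in EV cells). Eif4e measured 233, 228 and 236 CPM in NRF2 cells with romidepsin, against 188, 199.7 and 211 CPM with DMSO. EV cells had Eif4e at 225, 234 and 236 CPM with romidepsin, against 189, 209 and 210.2 CPM with DMSO. Eif4e (identifier ENSMUSG00000028156.12, chromosome 3, 138526179 to 138559696, plus strand) encodes the cap-binding protein and rose slightly, with romidepsin libraries above DMSO libraries in both lines (log2 0.22 ± 0.051, SE, edgeR adjusted p = 6.8e-04 in NRF2 cells; log2 0.19 ± 0.051, SE, edgeR adjusted p = 0.0021 in EV cells). Eif4e2, whose protein binds the cap without eIF4G, was not called, at 95.1 ± 3.73 CPM with romidepsin against 99.3 ± 4.91 CPM with DMSO in NRF2 cells and 97.8 ± 3.06 CPM with romidepsin against 96.8 ± 4.44 CPM with DMSO in EV cells.

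**Figure D3:**
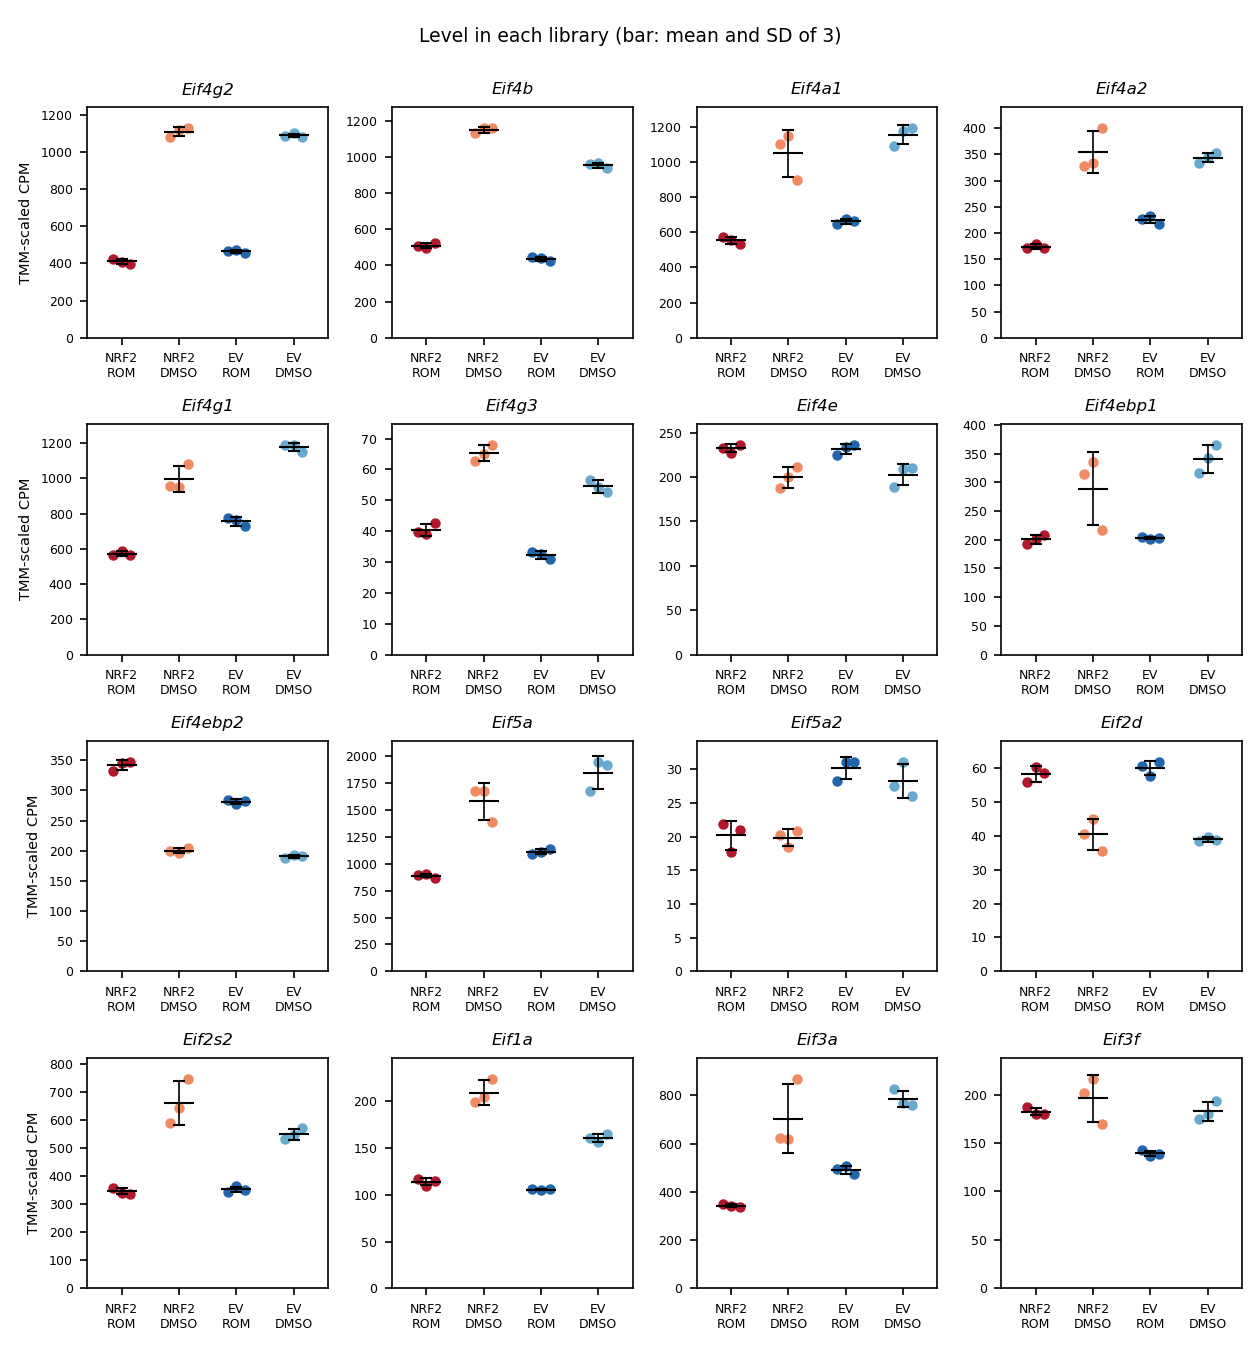
TMM-scaled CPM of 16 initiation factor genes in every library, with the mean and SD of 3 libraries as black bars, in NRF2 cells with romidepsin (ROM), NRF2 cells with DMSO, EV cells with romidepsin and EV cells with DMSO from left to right, each axis starting at 0. The romidepsin points lie below the DMSO points of the same line for Eif4g2, Eif4b, Eif4a1, Eif4a2, Eif4g1, Eif4g3, Eif5a, Eif2s2, Eif1a and Eif3a, and above them for Eif4ebp2, Eif4e and Eif2d.

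The genes of the 4E-binding proteins moved in opposite directions. Eif4ebp1 measured 193, 201 and 209 CPM in NRF2 cells with romidepsin, against 315, 336 and 217 CPM with DMSO. For Eif4ebp1 in EV cells the levels were 205, 201 and 204 CPM with romidepsin, against 317, 343 and 365 CPM with DMSO. Eif4ebp1 (identifier ENSMUSG00000031490.6, chromosome 8, 27260329 to 27276674, plus strand) encodes the best known repressor of eIF4E, and it was lower with romidepsin in both lines (log2 -0.53 ± 0.13, SE, edgeR adjusted p = 0.004 in NRF2 cells; log2 -0.75 ± 0.13, SE, edgeR adjusted p = 4.4e-04 in EV cells). In NRF2 cells replicate 3 with DMSO stood close to the romidepsin libraries, and without it the log2 change of Eif4ebp1 was -0.71 (edgeR adjusted p = 1.2e-15). Eif4ebp2 measured 333, 346 and 348 CPM in NRF2 cells with romidepsin, against 199.6, 196 and 205 CPM with DMSO. EV cells had Eif4ebp2 at 285, 278 and 282 CPM with romidepsin, against 188, 193 and 191 CPM with DMSO. Eif4ebp2 (identifier ENSMUSG00000020091.15, chromosome 10, 61428491 to 61452661, minus strand), its paralog, rose in both lines without overlap (log2 0.77 ± 0.039, SE, edgeR adjusted p = 3.8e-12 in NRF2 cells; log2 0.56 ± 0.039, SE, edgeR adjusted p = 4.2e-10 in EV cells). Eif4enif1, whose protein carries eIF4E to the nucleus and to processing bodies, was lower at 67.1 ± 3.6 CPM with romidepsin against 119 ± 10.3 CPM with DMSO in NRF2 cells and 86.9 ± 3.02 CPM with romidepsin against 137 ± 7.79 CPM with DMSO in EV cells (log2 -0.82 ± 0.063, SE, edgeR adjusted p = 1.4e-09 in NRF2 cells; log2 -0.66 ± 0.062, SE, edgeR adjusted p = 2.9e-08 in EV cells). Eif4ebp3 was called higher in NRF2 cells, a call lost without replicate 2 or 3 with DMSO, or without replicate 1 or 3 with romidepsin, but it was low throughout, at 1.48 to 1.82 CPM in NRF2 cells with romidepsin against 0.533 to 1.47 CPM with DMSO and 0.566 to 0.811 CPM in EV cells with romidepsin against 0.641 to 1.58 CPM with DMSO. Its annotated exons share 501 of 744 bases with another protein-coding gene on the same strand, so its counts are uncertain.

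Ratios of 2 genes within a library do not depend on how libraries are scaled, and 6 pairs were compared. The count of Eif4ebp2 per count of Eif4ebp1 was 1.72, 1.72 and 1.67 in NRF2 cells with romidepsin, against 0.634, 0.585 and 0.943 with DMSO. In EV cells it was 1.39, 1.39 and 1.38 with romidepsin, against 0.595, 0.562 and 0.523 with DMSO. All 6 romidepsin libraries had more Eif4ebp2 than Eif4ebp1 counts and all 6 DMSO libraries had fewer. These counts are not divided by transcript length, which was 3.603 kb for Eif4ebp2 and 1.997 kb for Eif4ebp1. Per kilobase, Eif4ebp1 stayed above Eif4ebp2 with romidepsin, at 100.6 against 94.9 CPM per kb in NRF2 cells and 101.7 against 78.2 in EV cells. The log2 ratio of the Eif4ebp2 to the Eif4ebp1 counts differed by a mean of 1.29 over both lines (1.27 in NRF2 and 1.31 in EV cells). Eif4ebp1 per Eif4e differed by a log2 of -0.83 (-0.72 in NRF2 and -0.94 in EV cells), Eif5a2 per Eif5a by 0.83 (0.84 in NRF2 and 0.83 in EV cells), and Eif4e2 per Eif4e by -0.23 (-0.28 in NRF2 and -0.18 in EV cells). Each of these 4 pairs had an exact permutation p of 0.005 (two-sided, labels exchanged within each line), the smallest that the 400 permutations can give, and an adjusted p of 0.0075 over the 6 pairs by exact permutation. The other 2 pairs did not pass over both lines: Eif4a2 per Eif4a1 differed by 0.041 (exact permutation p = 0.855) and Eif4g3 per Eif4g1 by -0.0075 (p = 0.895 by the same exact permutation). With all libraries the lines had opposite signs in both pairs, with Eif4a2 per Eif4a1 at -0.11 in NRF2 and 0.19 in EV cells and Eif4g3 per Eif4g1 at 0.10 in NRF2 and -0.12 in EV cells, so the mean over the lines is near 0. The negative sign of Eif4a2 per Eif4a1 in NRF2 cells rested on replicate 3 with DMSO. Its log2 ratio was -1.16, against -1.75 and -1.78 in replicates 1 and 2 with DMSO and a mean of -1.67 with romidepsin. Without replicate 3 of NRF2 cells with DMSO, Eif4a2 per Eif4a1 was higher by 0.14 (adjusted p = 0.012, exact permutation).

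**Figure D4:**
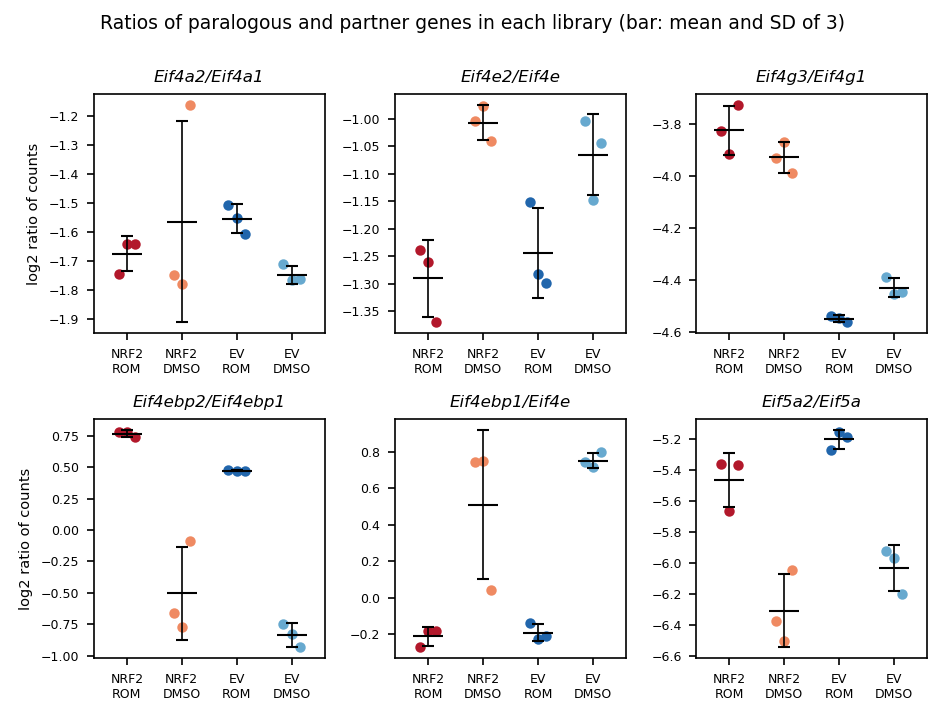
Log2 ratio of the counts of 6 gene pairs in every library, with 0.5 added to each count and the mean and SD of 3 libraries as black bars, in the 4 groups from NRF2 cells with romidepsin (ROM) on the left to EV cells with DMSO on the right. The counts are not divided by transcript length. For Eif4ebp2 over Eif4ebp1 the romidepsin points lie above 0 and the DMSO points below it, and for Eif4a2 over Eif4a1 replicate 3 of NRF2 cells with DMSO lies above the other libraries.

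The start codon and ternary complex genes fell in 9 of 10 cases in NRF2 cells and in 7 of 10 in EV cells, where 1 was higher. The lowest fold changes in both lines were those of Eif2s2, Eif1, Eif1a and Eif5. Eif2s2 encodes the β subunit of eIF2 and measured 346 ± 10.9 CPM with romidepsin against 662 ± 80.0 CPM with DMSO in NRF2 cells, and 353 ± 9.70 CPM with romidepsin against 551 ± 19.9 CPM with DMSO in EV cells (log2 -0.93 ± 0.066, SE, edgeR adjusted p = 5.2e-10 in NRF2 cells; log2 -0.64 ± 0.066, SE, edgeR adjusted p = 9.5e-08 in EV cells). The α and γ subunit genes had smaller changes. Eif2s1 measured 239, 216 and 221 CPM in NRF2 cells with romidepsin, against 238, 255 and 275 CPM with DMSO. For Eif2s1 in EV cells the levels were 204, 209.9 and 203 CPM with romidepsin, against 201, 208 and 221 CPM with DMSO. Eif2s1 (identifier ENSMUSG00000021116.10, chromosome 12, 78861819 to 78887010, plus strand), the gene of the α subunit that the stress kinases phosphorylate, was called lower in NRF2 cells, where the groups overlapped (log2 -0.18 ± 0.055, SE, edgeR adjusted p = 0.0053). This call was lost with upper-quartile scaling (adjusted p = 0.21, edgeR) and with library size alone (adjusted p = 0.45, edgeR). Eif2s1 was not called in EV cells. The γ subunit gene Eif2s3x was higher in EV cells (log2 0.15 ± 0.041, SE, edgeR adjusted p = 0.003) at 488 ± 7.32 CPM with romidepsin against 440.2 ± 7.60 CPM with DMSO, and not called in NRF2 cells at 456 ± 6.34 CPM with romidepsin against 435 ± 15.3 CPM with DMSO, except without replicate 3 with DMSO (log2 0.082, edgeR adjusted p = 0.03).

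Genes of the scanning factors fell as well. Eif1, which keeps the scanning ribosome from stopping at wrong codons, measured 291 ± 4.46 CPM with romidepsin against 512 ± 86.9 CPM with DMSO in NRF2 cells and 322 ± 8.91 CPM with romidepsin against 515 ± 27.7 CPM with DMSO in EV cells (log2 -0.81 ± 0.094, SE, edgeR adjusted p = 3.3e-06 in NRF2 cells; log2 -0.68 ± 0.094, SE, edgeR adjusted p = 2.1e-05 in EV cells). Eif1a measured 117, 109.7 and 115 CPM in NRF2 cells with romidepsin, against 199, 205 and 224 CPM with DMSO. For Eif1a in EV cells the levels were 106, 105 and 106 CPM with romidepsin, against 160.4, 157 and 165 CPM with DMSO. The 2 copies of eIF1A, autosomal Eif1a and X-linked Eif1ax, fell unequally: Eif1a by 0.88 (log2) in NRF2 and 0.61 in EV cells, Eif1ax by 0.26 in NRF2 and 0.15 in EV cells. The call of Eif1ax in EV cells was lost with upper-quartile scaling (edgeR adjusted p = 0.39) and with library size alone (edgeR adjusted p = 0.5). Eif5 measured 286, 269.8 and 275 CPM in NRF2 cells with romidepsin, against 496, 505 and 504 CPM with DMSO. EV cells had Eif5 at 252, 257 and 250.1 CPM with romidepsin, against 386, 372 and 400.3 CPM with DMSO. Eif5, the GTPase-activating factor of eIF2, was lower without overlap in both lines (log2 -0.86 ± 0.042, SE, edgeR adjusted p = 2.5e-12 in NRF2 cells; log2 -0.61 ± 0.042, SE, edgeR adjusted p = 3.7e-10 in EV cells). Eif5b, the GTPase that joins the subunits, was called lower in NRF2 cells (log2 -0.25 ± 0.10, SE, edgeR adjusted p = 0.046) and not in EV cells (log2 -0.062), and the difference between the lines was not called (edgeR adjusted p = 0.45). The call of Eif5b was kept in 7 of 24 alternatives, with adjusted p-values up to 0.35 (edgeR, library size alone), and its change was smaller when replicate 3 of the NRF2 cells with DMSO was omitted (log2 -0.088, edgeR adjusted p = 0.049). Eif1b fell in both lines (log2 -0.60 in NRF2 and -0.42 in EV cells). Eif1ad, which the symbol rule brought in and which is counted in this role, fell too (log2 -0.44 in NRF2 and -0.23 in EV cells). A part of its protein in scanning was not tested. The call of Eif1ad in EV cells was lost with upper-quartile scaling (edgeR adjusted p = 0.058) and with library size alone (edgeR adjusted p = 0.078).

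The genes of eIF2B and the alternative tRNA carriers were split, with 3 of 7 higher and 3 lower in NRF2 cells and 2 higher and 2 lower in EV cells. Eif2d measured 55.8, 60.3 and 58.4 CPM in NRF2 cells with romidepsin, against 40.6, 44.9 and 35.6 CPM with DMSO. For Eif2d in EV cells the levels were 60.6, 57.6 and 61.8 CPM with romidepsin, against 38.4, 39.7 and 38.6 CPM with DMSO. Eif2d (identifier ENSMUSG00000026427.16, chromosome 1, 131153181 to 131187658, plus strand), whose protein can place initiator tRNA without GTP and also recycles ribosomes, was higher in both lines with no overlap (log2 0.52 ± 0.067, SE, edgeR adjusted p = 1.2e-06 in NRF2 cells; log2 0.62 ± 0.067, SE, edgeR adjusted p = 1.5e-07 in EV cells). Eif2b2 measured 84.5, 87.3 and 85.1 CPM in NRF2 cells with romidepsin, against 67.9, 67.3 and 60.5 CPM with DMSO. For Eif2b2 in EV cells the levels were 69.0, 65.5 and 66.9 CPM with romidepsin, against 52.0, 56.2 and 57.3 CPM with DMSO. The β subunit gene of eIF2B, Eif2b2, rose in both lines (log2 0.39 ± 0.052, SE, edgeR adjusted p = 2.1e-06 in NRF2 cells; log2 0.28 ± 0.054, SE, edgeR adjusted p = 1.2e-04 in EV cells). Eif2b5, the gene of the catalytic ε subunit, fell to 93.0 ± 3.00 CPM in NRF2 cells with romidepsin, against 126 ± 2.98 CPM with DMSO, and to 95.5 ± 1.15 CPM in EV cells with romidepsin, against 131 ± 3.36 CPM with DMSO (log2 -0.44 ± 0.043, SE, edgeR adjusted p = 4.2e-08 in NRF2 cells; log2 -0.46 ± 0.043, SE, edgeR adjusted p = 2.6e-08 in EV cells). Eif2b4 was not called in either line and measured 40.4 ± 0.531 CPM with romidepsin against 40.8 ± 0.488 CPM with DMSO in NRF2 cells and 38.2 ± 2.11 CPM with romidepsin against 38.2 ± 0.594 CPM with DMSO in EV cells. Eif2b1 was called higher in NRF2 cells (log2 0.14 ± 0.061, SE, edgeR adjusted p = 0.041), a call kept in 13 of 24 alternatives and lost without replicate 3 with DMSO (log2 0.049, edgeR adjusted p = 0.34), while in EV cells, where all libraries gave no call, it was called without that library (log2 0.13, edgeR adjusted p = 0.0046). Eif2b3 was called lower in NRF2 cells (log2 -0.24 ± 0.085, SE, edgeR adjusted p = 0.015) and not in EV cells. This call was lost with upper-quartile scaling (log2 -0.13, edgeR adjusted p = 0.15) and with library size alone (log2 -0.10, edgeR adjusted p = 0.26). The small fall of Eif2a, the gene of another tRNA carrier, was lost or turned round with other scalings, at a log2 of 0.014 in NRF2 and 0.0011 in EV cells with library size alone.

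Among the 14 eIF3 genes, whose subunits form the scaffold of the preinitiation complex, 9 were lower in each line and 2 higher in NRF2 and 1 in EV cells. Eif3a measured 348, 342 and 338 CPM in NRF2 cells with romidepsin, against 623, 619 and 869 CPM with DMSO. For Eif3a in EV cells the levels were 493, 506 and 473 CPM with romidepsin, against 825, 770.1 and 759.6 CPM with DMSO. Eif3a (identifier ENSMUSG00000024991.8, chromosome 19, 60761117 to 60790658, minus strand), the gene of the largest subunit, fell most (log2 -1.04 ± 0.11, SE, edgeR adjusted p = 1.8e-06 in NRF2 cells; log2 -0.68 ± 0.11, SE, edgeR adjusted p = 8.8e-05 in EV cells). Eif3c fell by 0.60 (log2) in NRF2 and 0.51 in EV cells, Eif3g by 0.47 in NRF2 and 0.36 in EV cells, Eif3d by 0.51 in NRF2 and 0.29 in EV cells, and Eif3e by 0.37 in NRF2 and 0.28 in EV cells. Eif3b measured 460.4, 470.2 and 437 CPM in NRF2 cells with romidepsin, against 516, 538 and 501 CPM with DMSO. EV cells had Eif3b at 531, 521 and 521 CPM with romidepsin, against 584, 608 and 617 CPM with DMSO. Eif3b fell little, by 0.18 (log2) in NRF2 and 0.20 in EV cells, and lost its call with upper-quartile scaling (edgeR adjusted p = 0.12 in NRF2 and 0.064 in EV cells). Eif3h measured 522, 511 and 511 CPM in NRF2 cells with romidepsin, against 457, 485 and 461 CPM with DMSO. EV cells had Eif3h at 477, 477 and 486 CPM with romidepsin, against 381, 403 and 422 CPM with DMSO. Eif3h rose without overlap (log2 0.14 ± 0.045, SE, edgeR adjusted p = 0.0091 in NRF2 cells; log2 0.26 ± 0.045, SE, edgeR adjusted p = 5.0e-05 in EV cells). In NRF2 cells that call was lost with no filter (edgeR adjusted p = 0.057) and without replicate 1 with romidepsin (edgeR adjusted p = 0.052).

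The remaining eIF3 genes were mixed. Eif3i measured 206, 201 and 202 CPM in NRF2 cells with romidepsin, against 176, 194 and 149 CPM with DMSO. For Eif3i in EV cells the levels were 194, 201 and 202 CPM with romidepsin, against 175, 190.3 and 192 CPM with DMSO. Eif3i was called higher in NRF2 cells (log2 0.23 ± 0.070, SE, edgeR adjusted p = 0.0068) and not in EV cells. Without replicate 3 of NRF2 cells with DMSO it was called higher in both lines (log2 0.12, edgeR adjusted p = 0.013 in NRF2 cells; log2 0.10, edgeR adjusted p = 0.016 in EV cells). Eif3f measured 187, 180.0 and 180.1 CPM in NRF2 cells with romidepsin, against 202, 216 and 169 CPM with DMSO. EV cells had Eif3f at 143, 137 and 138 CPM with romidepsin, against 175, 180.3 and 193 CPM with DMSO. Eif3f was called lower in EV cells (log2 -0.39 ± 0.069, SE, edgeR adjusted p = 6.4e-05) and not in NRF2 cells, and the test of the difference missed the threshold (log2 0.29 ± 0.10, SE, edgeR adjusted p = 0.054) except without replicate 3 of NRF2 cells with DMSO (edgeR adjusted p = 0.024). Without that library Eif3f was also called lower in NRF2 cells (log2 -0.22, edgeR adjusted p = 2.5e-05). Eif3l was called lower in NRF2 cells (log2 -0.13 ± 0.044, SE, edgeR adjusted p = 0.0096), a direction that turned with library size alone (log2 0.0061), and not in EV cells. Eif3m was called lower in NRF2 cells without that library (log2 -0.21, edgeR adjusted p = 1.1e-04) and in neither line with all libraries. Eif3k was not called in either line, with Eif3k at 188 ± 1.51 CPM with romidepsin against 167 ± 22.8 CPM with DMSO in NRF2 cells and 168 ± 2.98 CPM with romidepsin against 162 ± 11.7 CPM with DMSO in EV cells. Eif3j1 measured 56.8, 50.8 and 54.0 CPM in NRF2 cells with romidepsin, against 71.1, 73.1 and 84.7 CPM with DMSO. For Eif3j1 in EV cells the levels were 50.2, 48.4 and 48.7 CPM with romidepsin, against 59.4, 62.9 and 62.0 CPM with DMSO. Eif3j1 and Eif3j2, the genes of a loosely bound subunit, both fell (Eif3j1 -0.50 in NRF2 and -0.32 in EV cells, Eif3j2 -0.75 in NRF2 and -0.52 in EV cells, log2), but their longest transcripts match at 99.8% over 2369 bases, so how reads were divided between them is uncertain. Eif3d shares 2151 of its 4968 exonic bases with an antisense gene. Likewise, Eif5b shares 1643 of 9753 with Rev1 and Eif3j1 1107 of 5830 with Spg11, each on the other strand. Whether counting used strand is not given in the sources used here.

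Of the 3 genes of later steps, Eif5a was called and Eif5a2 and Eif6 were not. Eif5a measured 898, 902 and 869.5 CPM in NRF2 cells with romidepsin, against 1678, 1671 and 1384 CPM with DMSO. For Eif5a in EV cells the levels were 1094, 1110.4 and 1133 CPM with romidepsin, against 1672, 1946 and 1919 CPM with DMSO. Eif5a (identifier ENSMUSG00000078812.10, chromosome 11, 69916714 to 69921958, minus strand) encodes the hypusine-bearing factor that helps ribosomes through difficult peptide bonds. It fell in both lines without overlap (log2 -0.83 ± 0.070, SE, edgeR adjusted p = 5.9e-09 in NRF2 cells; log2 -0.73 ± 0.069, SE, edgeR adjusted p = 3.8e-08 in EV cells). Eif5a2 measured 21.8, 17.8 and 21 CPM in NRF2 cells with romidepsin, against 20.2, 18.4 and 20.9 CPM with DMSO. For Eif5a2 in EV cells the levels were 28.3, 31.1 and 31.1 CPM with romidepsin, against 27.6, 31.1 and 26.1 CPM with DMSO. Eif5a2 (identifier ENSMUSG00000050192.8, chromosome 3, 28781276 to 28798846, plus strand), the second isoform gene, was not called for romidepsin in either line. Eif6, whose protein keeps free large subunits from joining, was not called either, at 217 ± 14 CPM with romidepsin against 200.3 ± 38.2 CPM with DMSO in NRF2 cells and 194 ± 4.17 CPM with romidepsin against 174 ± 10.8 CPM with DMSO in EV cells. Without replicate 3 of NRF2 cells with DMSO, Eif6 was called higher in EV cells (log2 0.16, edgeR adjusted p = 0.0015). The 5 low genes of the Eif1ad series (Eif1ad2, 6, 7, 15 and 19) passed the filter on low counts at under 2 CPM in every library. Of these, Eif1ad2 and Eif1ad7 were called higher in both lines and Eif1ad15 in EV cells. Eif1ad15 was called in NRF2 cells as well without replicate 3 with DMSO (log2 1.61, edgeR adjusted p = 0.0071). The other 18 genes were not tested, with 0 to 83 counts over all 12 libraries: 12 of the Eif1ad series, Eif2s3y, Eif4a3l1, Eif4a3l2, Eif4e1b, Eif4e3 and Eif5al3-ps.

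Fewer initiation factor genes were called for NRF2 overexpression than for romidepsin, and over the 47 genes averaging 5 CPM or more the log2 changes ran from -0.59 to 0.39 with romidepsin and from -0.51 to 0.38 with DMSO. With romidepsin 8 of 53 were higher and 12 lower in NRF2 than in EV cells, where 23% of all tested genes were higher and 22.4% lower. With DMSO 12 were higher and 7 lower, where 19.3% were higher and 16.9% lower (edgeR adjusted p under 0.05). The median log2 change of the 53 genes was -0.016 with romidepsin and 0.044 with DMSO. The counts depend on replicate 3 of NRF2 cells with DMSO: without it 14 were higher and 19 lower with romidepsin (background 25.7% higher and 28.7% lower), and 21 were higher and 8 lower with DMSO (background 22.9% higher and 20.1% lower). In the comparison with romidepsin that library enters only through the estimate of the spread and the scaling. All 20 calls with romidepsin and all 19 with DMSO remained without it. Added with romidepsin were Eif1a, Eif2s1, Eif3h, Eif3j1, Eif3k and Eif6 among the higher genes and Eif1, Eif2b1, Eif2s3x, Eif3d, Eif3j2, Eif4h and Eif5b among the lower ones. Added with DMSO were Eif1, Eif2d, Eif3c, Eif3e, Eif3f, Eif3g, Eif3k, Eif3m and Eif6 among the higher genes and Eif3a among the lower ones (log2 -0.33, edgeR adjusted p = 2.1e-08). Its omission moved 3 called values with DMSO by over 1.5 times, Eif2s2 from a log2 of 0.26 to 0.17, Eif4h from -0.19 to -0.12 and Eif5a from -0.23 to -0.14. Genes called with both treatments numbered 5 among the higher ones (5 of 8 with romidepsin and 5 of 12 with DMSO) and 6 among the lower ones (6 of 12 with romidepsin and 6 of 7 with DMSO). The share of all tested genes called with both treatments was not computed.

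**Figure D5:**
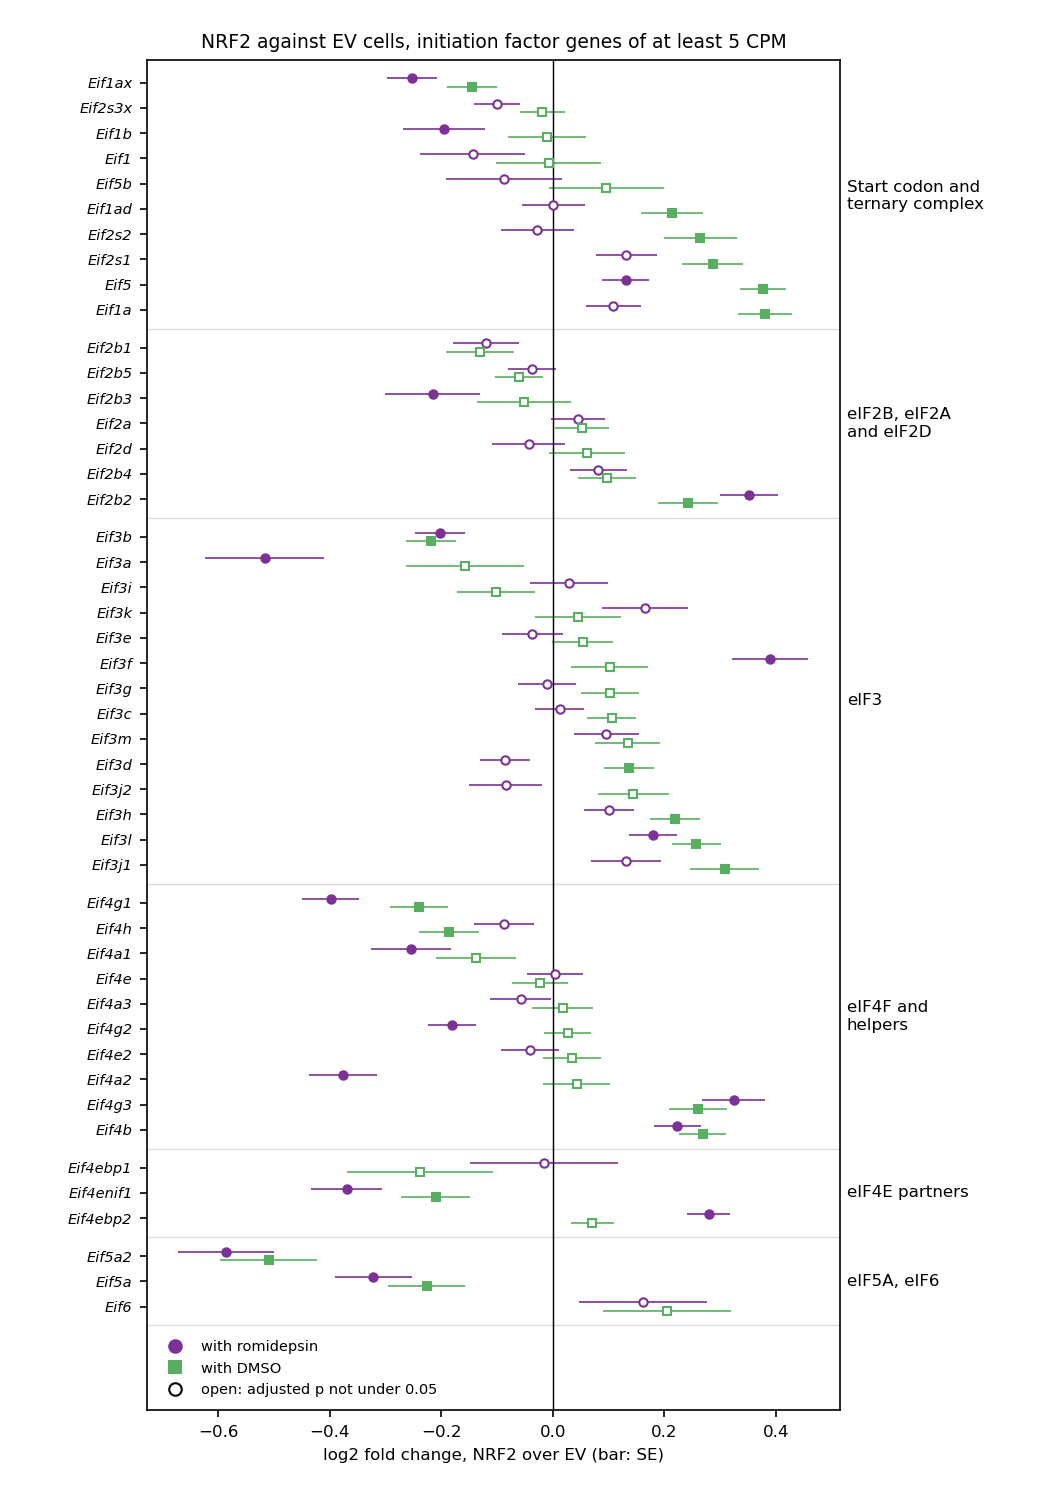
Log2 fold change of NRF2 over EV cells with its SE for the 47 tested initiation factor genes averaging 5 CPM or more, grouped by role, with romidepsin (circles) and with DMSO (squares, just under them). Filled symbols passed the edgeR test. Eif5a2, Eif4g1, Eif4enif1 and Eif5a are filled to the left of 0 under both treatments, and Eif4b, Eif4g3, Eif2b2, Eif5 and Eif3l to the right.

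Eif5a2 was the lowest in NRF2 relative to EV cells under both treatments: it averaged 20.2 ± 2.14 CPM in NRF2 and 30.2 ± 1.61 CPM in EV cells with romidepsin, and 19.8 ± 1.28 CPM in NRF2 and 28.3 ± 2.56 CPM in EV cells with DMSO (log2 -0.59 ± 0.086, SE, edgeR adjusted p = 3.1e-05 with romidepsin; log2 -0.51 ± 0.087, SE, edgeR adjusted p = 1.8e-04 with DMSO). Every NRF2 library was below every EV library. Eif4g1 was also lower (log2 -0.40 ± 0.052, SE, edgeR adjusted p = 8.8e-06 with romidepsin; log2 -0.24 ± 0.051, SE, edgeR adjusted p = 0.0013 with DMSO). Its paralog Eif4g3 was higher (log2 0.32 ± 0.056, SE, edgeR adjusted p = 1.6e-04 with romidepsin; log2 0.26 ± 0.053, SE, edgeR adjusted p = 8.4e-04 with DMSO). The scaffold paralogs thus stood in a different ratio in the lines: Eif4g1 had 14.2 counts per Eif4g3 count in NRF2 and 23.4 in EV cells with romidepsin, and 15.2 in NRF2 and 21.6 in EV cells with DMSO (geometric means of 3 libraries). Eif4enif1 and Eif5a were also lower under both treatments, although their NRF2 and EV libraries overlapped with DMSO (Eif4enif1 -0.37 with romidepsin and -0.21 with DMSO, Eif5a -0.32 with romidepsin and -0.23 with DMSO, log2). So were Eif3b (-0.20 with romidepsin and -0.22 with DMSO) and Eif1ax (-0.25 with romidepsin and -0.15 with DMSO). Fits of the compared groups alone lost the calls with DMSO of Eif4enif1 (edgeR adjusted p = 0.057), Eif5a (edgeR adjusted p = 0.097) and Eif1ax (edgeR adjusted p = 0.069), and so did some fits that leave out a library, with edgeR adjusted p-values up to 0.065 for Eif4enif1, 0.083 for Eif5a and 0.061 for Eif1ax.

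Genes higher in NRF2 cells included start codon factors with DMSO. Eif1a averaged 209 ± 13.3 CPM in NRF2 and 161 ± 4.31 CPM in EV cells with DMSO (log2 0.38 ± 0.048, SE, edgeR adjusted p = 8.5e-06). Eif5 averaged 501 ± 5.12 CPM in NRF2 and 386 ± 14.1 CPM in EV cells (log2 0.38 ± 0.042, SE, edgeR adjusted p = 1.6e-06). Eif2s1 (log2 0.29 ± 0.055, SE, edgeR adjusted p = 5.1e-04), Eif2s2 (log2 0.26 ± 0.065, SE, edgeR adjusted p = 0.0041) and Eif3j1 (log2 0.31 ± 0.061, SE, edgeR adjusted p = 7.1e-04) were higher with DMSO too. With romidepsin Eif3f was the highest of the genes over 5 CPM (log2 0.39 ± 0.069, SE, edgeR adjusted p = 2.3e-04), at 182 ± 3.91 CPM in NRF2 and 139 ± 3.07 CPM in EV cells. Eif2b2 was higher under both treatments (0.35 with romidepsin and 0.24 with DMSO, log2), as were Eif4b (0.22 with romidepsin and 0.27 with DMSO) and Eif3l (0.18 with romidepsin and 0.26 with DMSO). Eif4ebp2 was higher in NRF2 cells with romidepsin (log2 0.28 ± 0.039, SE, edgeR adjusted p = 1.7e-05). Eif4a2 (log2 -0.38 ± 0.061, SE, edgeR adjusted p = 8.6e-05) and Eif3a (log2 -0.52 ± 0.11, SE, edgeR adjusted p = 0.0019) were lower there.

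The test of the difference between the lines in the romidepsin effect called 7 genes, 1 higher and 6 lower, where 5.53% of all tested genes were higher and 10.2% lower. Romidepsin lowered Eif4a2, Eif2s2, Eif1a, Eif5, Eif3d and Eif4g2 more in NRF2 than in EV cells, and it raised Eif4ebp2 more. Eif4a2 differed most, with a romidepsin effect of -1.03 in NRF2 and -0.61 in EV cells (log2). With romidepsin, Eif4a2 and Eif4g2 were called lower in NRF2 than in EV cells and Eif5 higher, and with DMSO, Eif1a, Eif2s2, Eif3d and Eif5 were called higher. Of these, the call of Eif5 with romidepsin was kept in 19 of 24 alternatives (adjusted p up to 0.12, edgeR) and that of Eif3d with DMSO in 18 of 24 (adjusted p up to 0.11, edgeR). Without replicate 3 of NRF2 cells with DMSO, 2 genes were higher and 15 lower (background 6.84% higher and 15.7% lower), and the 7 remained among them. The others were Eif3f among the higher genes and Eif1, Eif1ad, Eif2d, Eif3a, Eif3e, Eif3h, Eif4a1, Eif5a and Eif6 among the lower ones.

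The genes around initiation were taken from 7 lists. Of the 10 eIF2α kinase and phosphatase genes, 2 rose and 4 fell with romidepsin in NRF2 cells and 3 rose and 4 fell in EV cells. Eif2ak3 (the endoplasmic reticulum stress kinase PERK) rose by 1.23 (log2) in NRF2 and 1.04 in EV cells. Eif2ak1 (the haem-regulated kinase HRI) rose by 0.76 in NRF2 and 0.63 in EV cells. Ppp1r15b, a targeting subunit of the eIF2α phosphatase, fell by 0.61 in NRF2 and 0.70 in EV cells. Of 22 genes of mTORC1 and the eIF4E kinases, 11 rose and 8 fell in NRF2 cells and 9 rose and 8 fell in EV cells. Mknk2, the gene of a kinase that phosphorylates eIF4E, measured 518 ± 19.3 CPM with romidepsin against 74.3 ± 10.7 CPM with DMSO in NRF2 cells, and 522 ± 24.0 CPM with romidepsin against 82.0 ± 3.05 CPM with DMSO in EV cells (log2 2.80 ± 0.082, SE, edgeR adjusted p = 7.3e-14 in NRF2 cells; log2 2.67 ± 0.081, SE, edgeR adjusted p = 1.9e-13 in EV cells). Sesn3, a sestrin gene whose family restrains mTORC1, rose by 2.59 in NRF2 and 2.46 in EV cells. Castor2, a relative of the arginine sensor of mTORC1, rose by 2.56 in NRF2 and 2.25 in EV cells. Larp1, whose protein binds the mRNAs of the translation machinery, fell by 0.90 in NRF2 and 0.88 in EV cells.

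The counts of the lists stand against a background of 39.3% of all tested genes lower and 40.5% higher in NRF2 cells, and 37.4% lower and 39.1% higher in EV cells. Of 17 poly(A)-binding and helicase partners, 10 fell and 5 rose in each line. The helicase gene Ddx3x was at -1.31 in NRF2 and -0.99 in EV cells, Paip1 at -0.94 in NRF2 and -0.84 in EV cells. Angel1 rose by 2.31 in NRF2 and 1.96 in EV cells (log2). Of 10 tested genes on the elongation list, which holds the kinase gene Eef2k as well as factors, 8 fell and 2 rose in each line. Among those that fell were Eef2k, the gene of the kinase that brakes eEF2 (-1.39 in NRF2 and -1.14 in EV cells), Eef1e1 (-0.90 in NRF2 and -0.69 in EV cells) and Eef1b2 (-0.65 in NRF2 and -0.60 in EV cells). Eef1d rose (0.41 in NRF2 and 0.37 in EV cells). Of 8 tested termination and recycling genes 3 fell and 1 rose in NRF2 cells and 4 fell and 2 rose in EV cells. The falls included those of N4bp2 (-1.89 in NRF2 and -1.60 in EV cells), of the release factor gene Gspt1 (-0.68 in NRF2 and -0.56 in EV cells) and of the recycling ATPase gene Abce1 (-0.64 in NRF2 and -0.42 in EV cells). The ribosome rescue gene Pelo rose (0.45 in NRF2 and 0.40 in EV cells). Of 8 exon junction and decay partners of Eif4a3, 6 fell and 1 rose in NRF2 cells and 4 fell and 1 rose in EV cells. The largest falls in EV cells were those of Upf3a (-1.02 in NRF2 and -1.10 in EV cells), Magohb (-1.15 in NRF2 and -0.65 in EV cells) and Upf1 (-0.31 in NRF2 and -0.36 in EV cells). Casc3 rose (0.33 in NRF2 and 0.21 in EV cells). Of the 10 mitochondrial factor genes 5 fell and 1 rose in NRF2 cells and 3 fell and 1 rose in EV cells. Tufm, the mitochondrial EF-Tu gene, rose by 0.44 in NRF2 and 0.25 in EV cells. Mrrf fell by 0.26 in NRF2 and 0.21 in EV cells (log2). Tsfm was called lower in EV cells (-0.20). The median log2 changes of the 7 lists ran from -0.42 to 0.12 in NRF2 cells and from -0.36 to 0.059 in EV cells, against 0.015 in NRF2 cells and 0.011 in EV cells over all tested genes.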

How the data were processed

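RNA of KP1 cells was sequenced as poly-A libraries (Trizol, TruSeq, per the labels' protocols). The submitters' processing notes name bcl2fastq 2.19, kallisto 0.44.0, DESeq2 and the build GRCm38, with no role or order. The authors deposited a table of whole-number counts per gene symbol, taken here as rounded estimated counts because the notes name kallisto, and a second table of normalised values, a signal that the authors made as count divided by 1 factor per library (tested on the values). The counts were used here as deposited (100% whole).

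From the counts, edgeR 4.0.16 (R 4.3.3) computed TMM-scaled CPM and quasi-likelihood tests in 1 fit over the 12 libraries (8 residual degrees of freedom) after filterByExpr on the 4 groups. The p-values are two-sided and Benjamini-Hochberg adjusted over 13502 genes, with a threshold of 0.05. Log2 fold changes carry their SE. Log2 ratios of 2 genes (0.5 added to each count) were tested by exact permutation within lines with scipy 1.17.1 under Python 3.11.15. Self-tests ran on simulated data. Alternatives were other scalings, filters, DESeq2 1.42.0, limma 3.58.1 (voom and trend), fits of the compared groups alone, a replicate block, a threshold of 0.01, and leaving out each library.

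Every initiation factor gene could be named. Values per library are given for the 4 called genes with the largest rise and the 4 with the largest fall in each of the 4 comparisons between groups (at least 5 CPM on average) and for Eif4e, Eif4a1, Eif4g1, Eif4ebp1, Eif2s1 and Eif5a. From each list of other genes, up to 3 called genes with the largest romidepsin effect in EV cells and the largest against the majority are named. The members and lists were chosen with earlier results of these data known. Of the immune markers, 1 is not reported here. Gene positions came from GENCODE M21 (GRCm38) and promoters from RefSeq. Of 35013 rows, 12331 had no count in any library. A library's depth of 16842824 to 28003010 counts puts a count of 0 at no more than 3 counts, or 0.105 to 0.182 CPM, for counting error only.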

Additional observations from a re-analysis of the deposited data

Results flagged for a closer look

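In 7 initiation factor genes the effect of romidepsin differed between NRF2 and EV cells by the test of the difference itself (edgeR, adjusted over 13502 genes). These 7 are 13.2% of the 53 tested genes, against 15.8% of all tested genes. By direction, 1.89% were higher and 11.3% lower, against 5.53% and 10.2% of all tested genes. The difference of the log2 effect, NRF2 minus EV, was -0.42 for Eif4a2 (edgeR adjusted p = 0.003), -0.29 for Eif2s2 (0.04), -0.27 for Eif1a (0.013), -0.25 for Eif5 (0.0086), -0.22 for Eif3d (0.024), -0.21 for Eif4g2 (0.027) and 0.21 for Eif4ebp2 (0.015). Eif4a2 and Eif5 kept this call in all 23 alternatives, with largest adjusted p-values of 0.013 and 0.033 (edgeR, DESeq2 or limma). Of the 23, the call was kept in 22 for Eif1a, 19 for Eif4ebp2, 18 for Eif3d, 16 for Eif4g2 and 13 for Eif2s2. All 7 were called without replicate 3 of NRF2 cells with DMSO, when 2 genes were higher and 15 lower (background 6.84% higher and 15.7% lower).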

How the results depend on the processing

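Of the called initiation factor genes, 31 of 40 kept their call for romidepsin in NRF2 cells under every alternative run, 31 of 36 in EV cells, 16 of 20 for NRF2 with romidepsin, 14 of 19 for NRF2 with DMSO and 2 of 7 for the difference of the romidepsin effect. Among single genes and lists, 4324 comparisons with an alternative kept their direction and call or stayed near the count, 147 lost the call, 110 counts moved, and 3 turned round: with library size alone, romidepsin moved Eif2a by 0.0144 in NRF2 and 0.0011 in EV cells and Eif3l by 0.0061 in NRF2 cells (log2). With upper-quartile scaling 15 and with library size alone 16 genes were higher with romidepsin in EV cells, since these scalings move all genes. Fits of the compared groups alone gave 15 higher for NRF2 with romidepsin and 3 lower for NRF2 with DMSO. A threshold of 0.01 left 3 lower for NRF2 with DMSO (1503 of all genes), and for the difference of the romidepsin effect 0 higher and 2 lower (309 and 741 of all genes). That difference had 2 higher genes with RLE, upper-quartile or library size scaling and with DESeq2, and 0 in the edgeR fit with no filter, where 3 were higher at an unadjusted p under 0.05 (3 with the filter too). The cause was not tested where none is given.

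Leaving out 1 library at a time gave 7 to 11 higher and 28 to 33 lower genes for romidepsin in NRF2 cells, and 8 to 12 and 26 to 27 in EV cells. It gave 7 to 14 higher and 10 to 19 lower for NRF2 with romidepsin, 11 to 21 and 4 to 9 with DMSO, and 0 to 2 and 3 to 15 for the difference of the romidepsin effect (475 to 924 and 961 to 2125 of all genes). The extremes come from replicate 3 of NRF2 cells with DMSO for 33, 12, 14, 19, 21, 15, 924 and 2125. The 4 belongs to the fit that omits EV DMSO replicate 2. For the difference, the 0, 475 and 961 belong to the fit that omits EV romidepsin replicate 2, and the 2 to those that omit EV DMSO replicate 1, NRF2 DMSO replicate 1 or NRF2 DMSO replicate 3. The 3 for the difference belongs to the fits that omit NRF2 romidepsin replicate 3, EV romidepsin replicate 1 or EV romidepsin replicate 2. The log2 ratio of Eif4a2 to Eif4a1 moved by -0.0136 to 0.1408 (-0.0054 when NRF2 DMSO replicate 1 is omitted), and that of Eif4g3 to Eif4g1 by -0.0316 to 0.0156 (0.0078 when NRF2 DMSO replicate 2 is omitted, 0.0032 when EV DMSO replicate 1 is). In NRF2 libraries alone these were -0.1114 and 0.1041, and the other 4 ratios were -0.7224, 0.8444, 1.2721 and -0.2833 (adjusted p = 0.15, exact permutation). In EV libraries alone those 4 were -0.9424, 0.8253, 1.3099 and -0.1794 (adjusted p = 0.1, exact permutation, the smallest that 3 against 3 can give), for Eif4ebp1 per Eif4e, Eif5a2 per Eif5a, Eif4ebp2 per Eif4ebp1 and Eif4e2 per Eif4e.

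No pairing by replicate number was visible: libraries of the same number correlated at -0.164 to 0.063 in their deviations from group means (18 pairs), and those of different numbers at -0.121 to 0.147. These values cannot show whether libraries of the same number were handled together. With the replicate number as a block, 10 genes were higher and 30 lower for romidepsin in NRF2 cells, 9 and 27 in EV cells, 8 and 10 for NRF2 with romidepsin, 12 and 7 with DMSO, and 1 and 4 for the difference. Depth limits the genes under 2 CPM, and 18 genes were too low to test.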
